A study of Sus scrofa with 4 samples.

Results

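The infarct zone of the heart after transplantation of human skeletal myoblasts was compared with the infarct zone of control minipigs, on 1 Affymetrix Porcine Genome Array a side. These are 2 of the 4 arrays of the series, and the other 2 hold the border zone of the same treatments. The members are all probe sets other than the Affymetrix controls, 23999 in number, and the description rests on the 12379 of them (51.6%) whose mean signal over both infarct arrays, in the linear units of MAS 5.0, was at least 7 on the log2 scale. They are called the signal class below. Of these, 6150 carry a single gene symbol, 131 carry several and 6098 carry none, and the first class stands for 4952 of the 6765 genes named on the array. The animals were female Bama minipigs, aged 4 months, with MI made by tying off the left circumflex artery. According to the methods, the myoblast group received human myoblasts suspended in DMEM, with cyclosporin A against rejection. The methods place the injections in the border zone of the infarct, and the array titles name only the zone of the tissue. The study names its control treatment group as the other side of the array comparison, and per the methods that group had DMEM injected after MI and the same cyclosporin A. The GEO labels call the control tissue untreated, without naming DMEM or the drug. How many minipigs stand behind an array and the week at which tissue was taken are not given in the sources used here. With 1 array a condition there are no replicates, no value below has an error between animals, and no test was made.

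After MI, dead muscle is cleared by leukocytes and replaced by granulation tissue and then by a scar of collagen. Complement and chemokines mark damaged tissue and recruit monocytes. Monocyte-derived macrophages clear debris, and activated fibroblasts lay down and crosslink matrix. Surviving cardiomyocytes at the edge re-express fetal genes such as natriuretic peptides. Skeletal myoblasts are the precursors of skeletal muscle, and after injection they have been studied both as new muscle and as a source of secreted factors. A piece of infarct tissue holds all of these cells, and in such bulk tissue fewer cells of a type and less RNA per cell cannot be told apart.

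On the myoblast array, most complement and macrophage genes, several chemokine ligands, an IgG heavy chain gene and JCHAIN had higher signals than on the control array. Most genes of the sarcomere, of mitochondrial respiration and of the collagenous matrix had lower ones. Many of the sarcomere and respiration genes are among the brightest, and the brightest genes as a whole leaned the same way. The medians of these lists were smaller in size after quantile normalization, that of the sarcomere most of all. With signals under 64 units set to 64, the widest differences upward in a named gene were in LOC396781, an IgG heavy chain gene, at 13.9-fold, and in DDC, the decarboxylase that makes dopamine and serotonin, at 13.1-fold. The widest downward were in ATP5I, a subunit of the mitochondrial ATP synthase, at 9.28-fold, and in RRM2B, the p53-inducible subunit of ribonucleotide reductase, at 8.24-fold.

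At 2-fold or more, 340 probe sets of the signal class were higher in the myoblast infarct zone (2.75%) and 248 were lower (2.0%). The same probe sets on the border zone arrays gave 323 higher (2.61%) and 304 lower (2.46%). Between the control infarct array and the control border array, which differ in zone alone by their labels, 60 were higher in the infarct zone (0.485%) and 51 lower (0.412%). That last comparison shares the control infarct array with the first. By gene, each represented by its brightest probe set, 118 were higher in the infarct zone (2.38%) and 86 lower (1.74%), against 114 higher (2.30%) and 93 lower (1.88%) in the border zone. At 4-fold, 55 probe sets were higher and 27 lower in the infarct zone. The signals of both infarct arrays correlated across probe sets of the class with r = 0.952, and those of both control arrays with r = 0.983, which is a description over probe sets that are not independent. The median log2 ratio over all 4952 genes was -0.0016, and 49.8% of them lay above 0.

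**Figure D1:**
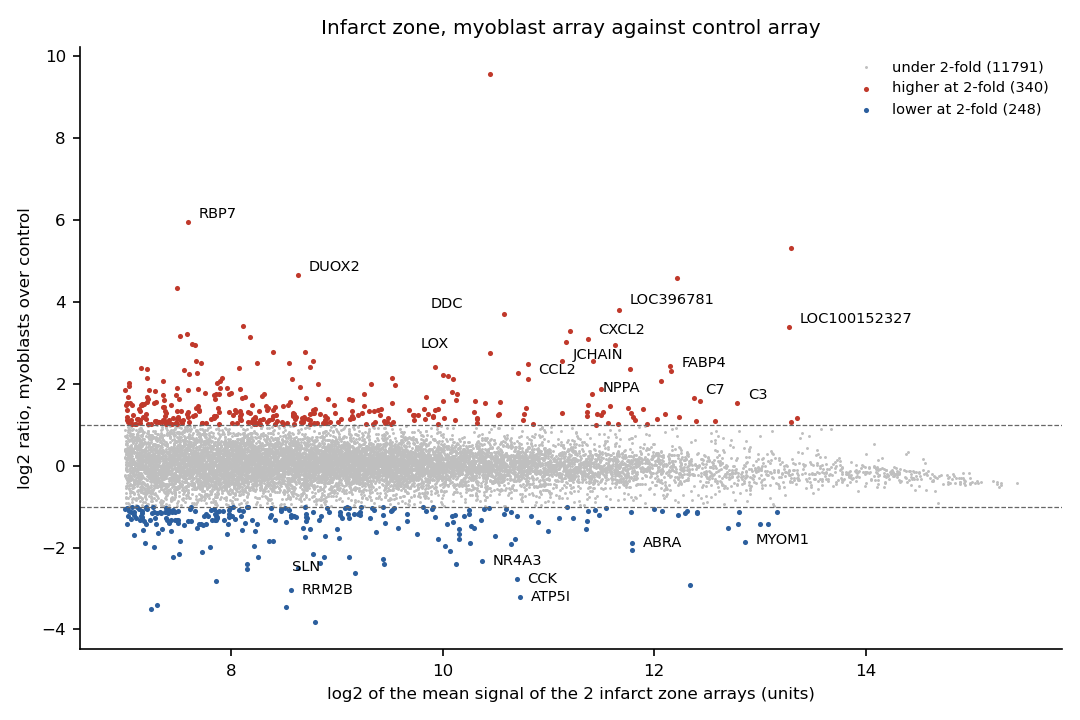
Log2 ratio of the myoblast over the control infarct array (vertical) against the log2 of their mean signal (horizontal), 1 point for each of the 12379 probe sets of the signal class, with dashed lines at 2-fold. The 340 higher and 248 lower probe sets spread over all signal levels, while the brightest probe sets sit slightly below 0.

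How many probe sets differed by 2-fold depended on signal. Below a log2 mean signal of 5 the share was 54.5% between the infarct arrays and 52.1% between the control arrays, about the same between zones as between treatments. From 7 to 9 the shares were 6.10% and 1.60%. From 11 to 13 they were 4.48% and 0.207%. Within 8 units of the limit of the class, 26 of 253 probe sets just inside (10.3%) and 29 of 284 just outside (10.2%) were 2-fold apart or more. The ratio also leaned with signal. Among genes of a log2 mean signal of 13 or more, 83.6% of 262 lay below 0, with a median log2 ratio of -0.20. From 7 to 11 it was 46.7% of 3848, with a median of 0.03.

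**Figure D2:**
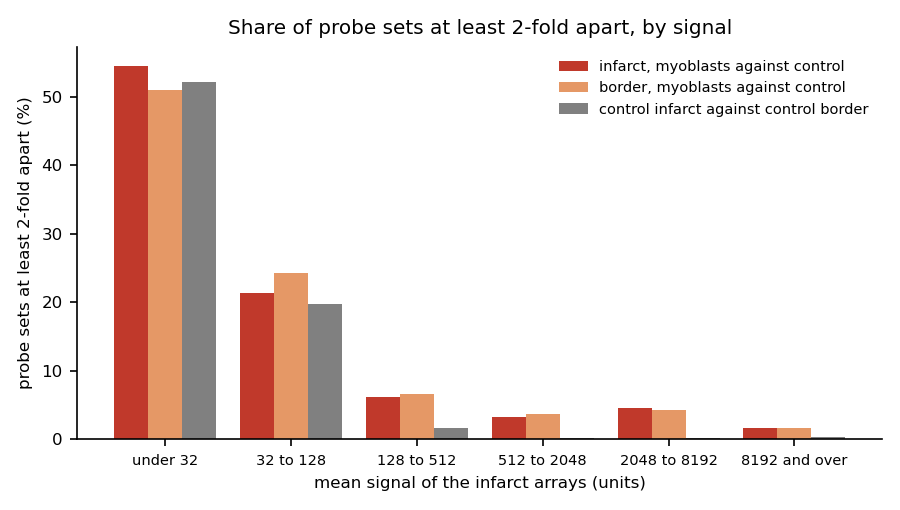
Percent of probe sets that differ by 2-fold or more (vertical, bars from 0) by mean signal of the infarct arrays (horizontal, units), for the infarct arrays, the border arrays and the control infarct array against the control border array. Below 32 units (5 on the log2 scale) the infarct and control comparisons stand at 54.5% and 52.1%, and from a log2 mean signal of 9 upward the control bar is barely visible while the infarct bar remains between 1.57% and 4.48%.

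All 4 arrays had been scaled alike, to a trimmed mean of 500.1 units. The 3'/5' signal ratio, a sign of RNA integrity, was 1.38 for GAPDH on the myoblast infarct array and 1.52 on its control. It was 2.49 and 4.13 for EF1A, and 19.5 and 36.8 for actin. In the border zone GAPDH gave 1.73 on the myoblast array and 1.55 on the control, the other way from the infarct zone. EF1A gave 3.01 and 4.17 there, and actin 24.6 and 24.9. The actin ratio was thus highest on the control infarct array, against which every infarct ratio is taken. The log2 signal of a 28S rRNA control probe set was 13.32 on the myoblast infarct array against 13.96 on the control, and 13.05 against 13.94 in the border zone. The EF1A ratio and the 28S signal thus differed between treatments in both zones, and the actin ratio in the infarct zone. The part of these differences in the results was not tested.

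An IgG heavy chain gene and JCHAIN, both products of antibody-forming cells, were far apart between the infarct arrays. LOC396781, the IgG heavy chain gene, read 6064 units on the myoblast infarct array, 437 on the control infarct array, 520 on the myoblast border array and 619 on the control border array. The myoblast infarct array stood apart from the other 3, which lay close together. JCHAIN, the chain that joins IgA and IgM into polymers, read 3828 against 648 units in the infarct zone, a ratio of 5.91, and 1245 against 775 in the border zone. LOC100152327, a gene with no role given in the annotation, read 18061 units on the myoblast infarct array and 1742, 3675 and 3153 on the control infarct, myoblast border and control border arrays. CD40, the co-stimulatory receptor of B cells and macrophages, read 276 against 111 units in the infarct zone by its brightest probe set. Its other probe sets read 118 against 160 and 164 against 106, so they differ in sign. CD79B, part of the B cell receptor, was dim on both arrays at 42.8 and 6.26 units. XBP1, a transcription factor of secretory cells, read 2833 against 3101, and BLNK, an adaptor of B cell receptor signals, 514 against 425. These 2 with JCHAIN and CD40 are the 4 genes of the B and plasma cell list in the signal class, of which 2 were higher at 2-fold (beside 2.38% of all genes) and none lower. The array holds no symbol for CD79A or MS4A1.

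Complement was higher on the myoblast array from recognition to the terminal components. Of 17 complement genes in the signal class, 15 lay above 0 and 7 were higher by 2-fold or more (41.2% of the list against 2.38% of all genes), with none at least 2-fold lower. Their median log2 ratio was 0.60 in the infarct zone and 0.43 in the border zone. There 3 of the 17 were at least 2-fold higher, against 2.30% of all genes. C1QA, a chain of the recognition molecule C1q, read 642 against 314 units in the infarct zone and 317 against 334 in the border zone. C1S, the protease of the classical pathway, read 14389 against 6470 and, in the border zone, 11319 against 6433. C4A, which the C1 proteases cleave, read 1740 against 379 in the infarct zone, 4.60-fold, and 811 against 396 in the border zone. The 3 genes are of the classical pathway, and the infarct ratio exceeded the border ratio in each.

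CFB, the protease subunit of the alternative pathway convertase, read 359 units on the myoblast infarct array against 62.8 on its control, and 98.3 against 91.6 in the border zone. With signals floored at 64 units its infarct ratio was 5.61. C3, on which the pathways converge, read 10466 against 3637 in the infarct zone and 9571 against 3647 in the border zone. C7, of the membrane attack complex, read 8073 against 2575 and 5466 against 1860. For C3 and C7 both myoblast arrays lay above both control arrays, whereas for CFB the myoblast infarct array alone lay above the rest. Among the regulators, C4BPA, a subunit of the C4b-binding inhibitor, was 4.18-fold higher at 6916 against 1654 units, and 2053 against 1246 in the border zone. CD46, CD55 and CD59, the inhibitors on host cell membranes, had log2 ratios of 0.09, 0.09 and 0.33. Other probe sets of CD55 in the class read 333 against 196 and 205 against 202 units in the infarct zone. CLU, clusterin, which binds the terminal complex, was the lowest of the list at 2675 against 5039 units, a log2 ratio of -0.91 in the infarct zone and -0.79 in the border zone.

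**Figure D3:**
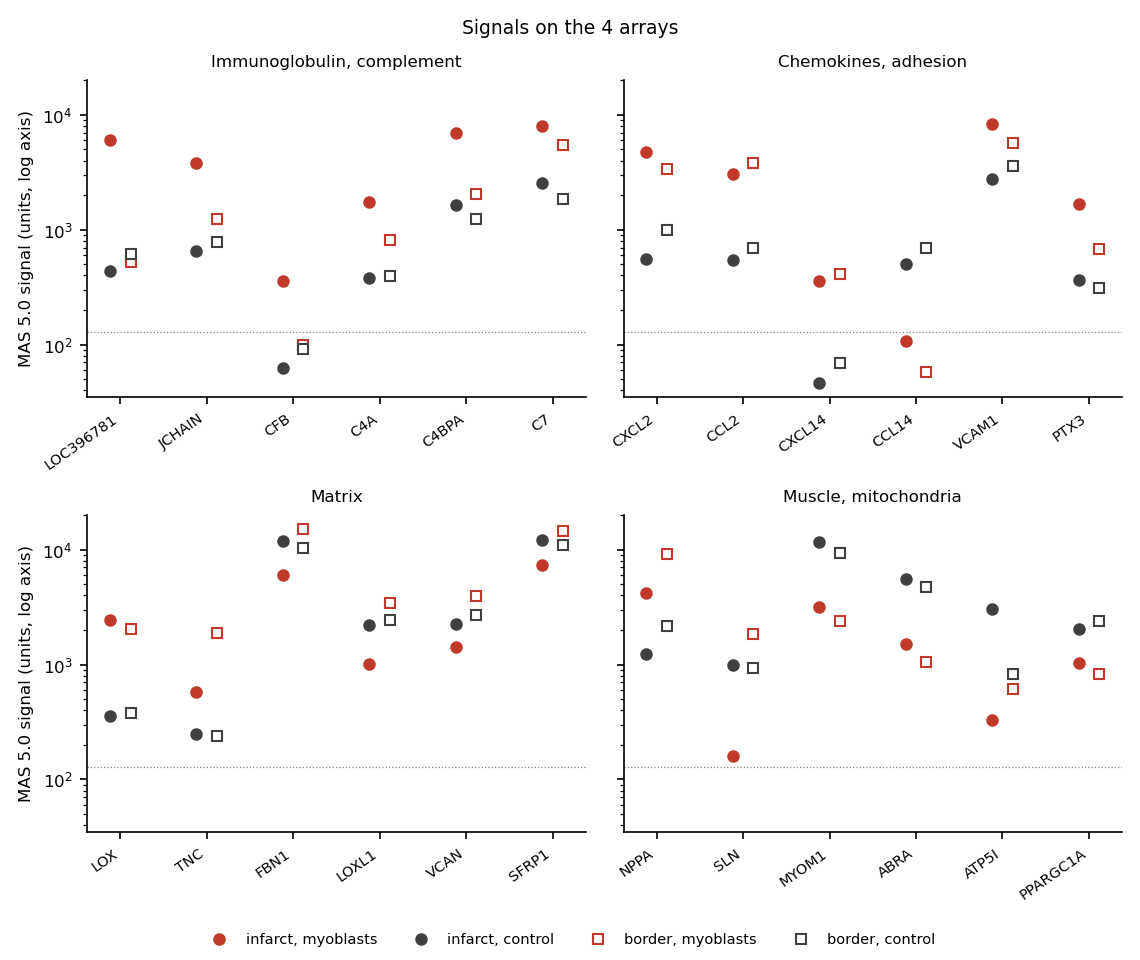
MAS 5.0 signal in units (vertical, log axis) of 24 genes on the 4 arrays, red for myoblasts and dark for control, filled circles for the infarct zone and open squares for the border zone, with a dotted line at the limit of the signal class. LOC396781 and CFB stand apart on the myoblast infarct array alone, C7, CXCL2, CCL2 and LOX lie higher on both myoblast arrays, and FBN1, LOXL1, VCAN and SFRP1 are lowest on the myoblast infarct array and highest on the myoblast border array.

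Chemokine ligands were fewer but wide apart. Of 13 in the signal class, 3 were higher by 2-fold in the infarct zone (23.1%, against 2.38% of all genes), 1 was lower by 2-fold (7.69%, against 1.74%) and 10 lay above 0, with a median log2 ratio of 0.56 and of 0.21 in the border zone. CXCL2, which attracts neutrophils, read 4747 against 556 units in the infarct zone and 3369 against 999 in the border zone. CCL2, the main attractant of monocytes, read 3041 against 540 and 3837 against 695. CXCL14, which attracts monocytes and dendritic cells, read 359 against 46.4 and 411 against 69.1, and its second probe set was also higher, at 182 against 32.8 units in the infarct zone. Both myoblast arrays lay above both control arrays in each of these 3. CCL14 went the other way, with 107 against 504 units in the infarct zone and 57.6 against 696 in the border zone. The receptors in the class, CCR1 and CXCR4, read 177 against 113 and 1014 against 541 units.

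Adhesion molecules of the vessel wall followed in part. VCAM1, which holds monocytes and lymphocytes, read 8269 against 2762 units in the infarct zone, 2.99-fold, and 5747 against 3618 in the border zone. ICAM1 read 704 against 496, SELP 189 against 118 and CD34 476 against 793 units in the infarct zone, all under 2-fold. The median log2 ratio of the 10 genes of the adhesion list was 0.35 in the infarct zone and 0.32 in the border zone. In each zone 1 of the 10 was at least 2-fold higher, against 2.38% of all genes in the infarct zone and 2.30% in the border zone. Among endothelial identity genes, CDH5, the cadherin of endothelial junctions, read 2489 against 1222 units, while VWF read 1181 against 1124 and PECAM1 4062 against 3623. Over the 13 genes of that list the median log2 ratio was 0.08. PTX3, a soluble pattern receptor made by macrophages and endothelium, read 1689 units on the myoblast infarct array and 364, 677 and 308 on the control infarct, myoblast border and control border arrays.

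Most macrophage genes were higher in the infarct zone, mostly by under 2-fold. Of 19 in the signal class 18 lay above 0, 2 were higher by 2-fold (10.5%, against 2.38% of all genes) and none lower. The median log2 ratio was 0.53, against 0.35 in the border zone, where 5 of the 19 lay below 0. The one below 0 in the infarct zone was GPNMB, at 4913 against 5712 units, and its other probe sets were also lower there. FCER1G and SPP1 were level, with log2 ratios of 0.0007 and 0.05. The summed signal of the 19 was 58253 units on the myoblast infarct array and 42942 on the control, and 46905 against 39317 in the border zone. C1QA, given above, was 1 of the 2 at 2-fold. The other was APOE, the lipoprotein that macrophages secrete, at 329 against 36.7 units, or 5.14-fold with the floor of 64. In the border zone APOE read 297 against 220, so that the control infarct array was the one that stood apart. The cysteine protease CTSS read 7942 against 4947, CTSB had a log2 ratio of 0.53 and the mannose receptor MRC1 one of 0.55. CD163, the haemoglobin scavenger receptor, could not be placed: its brightest probe set read 1810 against 1300 units and its second one 415 against 1314. CD14 and ITGAM, further markers of the lineage, were outside the signal class. CD209, a lectin of dendritic cells and macrophages, read 507 against 47.5 units in the infarct zone, 7.92-fold with the floor, and 74.6 against 33.0 in the border zone.

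Antigen presentation through MHC class II and interferon response genes lay mostly above 0 in the infarct zone. The median log2 ratio of 12 MHC class II and co-stimulation genes was 0.34, with 11 above 0 and 2 higher by 2-fold, CD40 and IFI30 (16.7%, against 2.38% of all genes). In the border zone the median was 0.12, with 8 above 0, 1 higher by 2-fold and 1 lower, against 2.30% and 1.88% of all genes. CD40, also on the B and plasma cell list, has probe sets that differ in sign, as given above. IFI30, the lysosomal thiol reductase of antigen processing, read 1433 against 551 units in the infarct zone and 1147 against 487 in the border zone. Its second probe set read 211 against 51.8 in the infarct zone but 105 against 150 in the border zone. SLA-DRA, SLA-DRB1 and CD74 had log2 ratios of 0.41, 0.34 and 0.52. Among 23 interferon-stimulated genes 21 lay above 0, with a median of 0.51 in the infarct zone and 0.20 in the border zone. RSAD2, an antiviral enzyme, was the only one of them at 2-fold (4.35%, against 2.38% of all genes), with 543 against 231 units. In the border zone it read 434 against 525. ISG15, the ubiquitin-like modifier, read 994 against 583 in the infarct zone and 982 against 1056 in the border zone. For both genes the control infarct array was the lowest of the 4. MHC class I was mixed, with a median of -0.08 over 14 genes. SLA-3, a class I heavy chain, read 194 against 914 units in the infarct zone and 135 against 831 in the border zone, while SLA-2 read 4909 against 2876. The class I genes are near copies of one another and their probe sets may share transcripts.

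Signals of the cytokines that the study followed by Q-PCR and other methods were dim. From its arrays the study also lists TNF and IL1B as lower and IL10 as higher after myoblasts, in what it calls peri-ischemia tissue. TNF read 13.95 units on the myoblast infarct array and 40.5 on the control, and IL1B 111 and 121. IL6 read 189 against 41.7 and IL10 160 against 47.2, both outside the signal class. From 5 to 7 on the log2 scale, where both lie, 19.7% of probe sets differed by 2-fold between the control arrays. TLR4, the endotoxin receptor, read 483 against 244 units in the infarct zone and 451 against 302 in the border zone. Its other probe sets lay outside the signal class and did not share a direction. They read 93.1 against 46.6, 80.3 against 58.4, 8.60 against 8.50 and 3.48 against 64.6 units in the infarct zone. The study lists TLR4 from its arrays as lower, at a ratio of 0.054, which is the ratio of the last of these probe sets. MAPK14 read 1228 against 1269, MAPK3 331 against 393 and MAPK8 was under 64 units on both arrays. FOXO1 read 857 against 1205 units. HMGB1, a nuclear protein that acts as an alarm signal outside the cell, read 11110 against 14498 by its brightest probe set and 5403 against 4648 by the next, and HSPD1 read 8967 against 8346. No member of the neutrophil list was in the signal class, of 9 on the array. S100A9 read 95.5 against 11.5 and S100A8 43.6 against 56.7 units. Of 16 T and NK cell genes on the array only CD8A was in the class, at 168 against 107 units.

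Matrix genes, by the median of their list, lay on opposite sides of 0 in the infarct and border zones. Of 17 genes of collagens and fibrillar matrix, 13 lay below 0 in the infarct zone, with a median log2 ratio of -0.34. In the border zone 13 lay above 0, with a median of 0.46. The same gene lay below 0 in the infarct zone and above 0 in the border zone in 9 cases (52.9%), against 17.3% of all genes. One was at least 2-fold lower in the infarct zone (5.88%, against 1.74% of all genes), and none higher. For 13 of the 17 (76.5%) the myoblast infarct array was the lowest of the 4, against 20.3% of all genes. For 10 of the 17 the myoblast border array was the highest, against 1402 of all 4952 genes. Both held for 7 (41.2%), against 7.21% of all genes. FBN1, the fibrillin of elastic microfibrils, read 6018 units on the myoblast infarct array, 11904 on the control infarct array, 15070 on the myoblast border array and 10431 on the control border array. COL5A1, which nucleates collagen fibrils, read 1626, 2488, 4509 and 2309 in that order. BGN, the proteoglycan biglycan, read 2604, 3738, 8665 and 4456. In these 3 the control arrays of both zones lay between the myoblast arrays. The second probe set of FBN1 had the same order, at 1130 against 1655 units in the infarct zone and 2486 against 1720 in the border zone.

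COL3A1, a main collagen of granulation tissue, was the one at 2-fold, with 118 against 318 units in the infarct zone and 155 against 208 in the border zone. It has 1 probe set, which is dim. COL1A2 was 1.61-fold higher in the infarct zone by its brightest probe set, at 430 against 268 units, and lower by another, at 68.8 against 127. COL1A1 is not on the array under that symbol. FN1, fibronectin, read 17931 against 14819 units in the infarct zone and 26386 against 16199 in the border zone. Its second probe set read 1026 against 258 and 1038 against 317, so that it was higher in both zones on both of its probe sets in the signal class. The remaining 2 probe sets were under 64 units on all 4 arrays and lower in the infarct zone, at 22.6 against 47.8 and 13.97 against 33.1.

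Fibroblast markers as a list also lay on opposite sides of 0. Of 13 in the class 9 lay below 0 in the infarct zone (median log2 ratio -0.32) and 11 lay above 0 in the border zone (median 0.41), with none at 2-fold in either. Below 0 in the infarct zone and also above 0 in the border zone were 7 (53.8%), against 17.3% of all genes. The median of the list was -0.24 in the infarct zone and 0.43 in the border zone after quantile normalization, and the collagen list gave -0.25 and 0.43. THY1, a surface protein of fibroblasts, read 4981 against 8922 units in the infarct zone and 10170 against 8699 in the border zone by its brightest probe set. Its next probe set was lower in both zones, at 316 against 732 and 497 against 747, and the third was higher in both, at 172 against 155 and 270 against 244.5. SFRP1, a secreted inhibitor of Wnt, read 7303 against 12061 and 14596 against 10950, and its second probe set was lower in both zones at 4433 against 11914 and 9069 against 10693. For THY1 and SFRP1 the change of side between zones thus rests on the brightest probe set. TCF21, a transcription factor of cardiac fibroblasts, was higher in both, at 2285 against 1387 and 2503 against 1693. The summed signal of the list was 101675 units on the myoblast infarct array, 133418 on its control, and 156107 against 131151 in the border zone. LUM, DCN and COL1A2 stand on both the fibroblast and the collagen list.

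Crosslinkers and matricellular proteins were split. LOX, the lysyl oxidase that crosslinks collagen and elastin, read 2429 against 358 units in the infarct zone and 2051 against 378 in the border zone. LOXL1, its relative in elastic tissue, was 2.20-fold lower in the infarct zone at 1002 against 2200, and read 3420 against 2464 in the border zone. TNC, tenascin C of healing wounds, read 575 against 250 in the infarct zone and 1866 against 240 in the border zone. THBS1, an activator of latent TGF-beta, read 7328 against 3419 and 10658 against 4523, and 3 of its 4 other probe sets were also over 2-fold higher in the infarct zone. POSTN, periostin, read 6583 against 8626 and 16608 against 9569, and VCAN, versican, 1415 against 2257 and 3955 against 2696. LOX, TNC and THBS1 were thus higher on both myoblast arrays, and LOXL1, POSTN and VCAN on the border one alone. COMP, a cartilage and tendon matrix protein, was wide apart in the border zone at 7838 against 571 units, and read 359 against 468 in the infarct zone. The list of 17 had 3 genes higher at 2-fold (17.6%, against 2.38% of all genes) and 1 lower (5.88%, against 1.74%) in the infarct zone. Its median log2 ratio there was 0.11. In the border zone 6 of the 17 were higher by 2-fold, against 2.30% of all genes, with a median of 0.55.

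Among proteases, MMP14, the membrane-type collagenase, read 490 against 145 units in the infarct zone, 3.37-fold, and 258 against 223 in the border zone. ADAMTS1, which cleaves versican and aggrecan, read 6178 against 2600 and CTSK, a collagen-degrading cathepsin, 7882 against 4398. MMP2 and TIMP1 had log2 ratios of 0.07 and 0.12. ADAM17, the sheddase of TNF, was lower by its brightest probe set, at 66.5 against 297 units, and higher by the next, at 157 against 127, so that no direction can be given. Of TGF-beta genes, ID3, a target of BMP signals, read 5756 against 2593 in the infarct zone and 7217 against 2339 in the border zone. TGFB3 read 753 against 1233 in the infarct zone and 2073 against 1369 in the border zone. TGFB2 read 630 against 246 by its brightest probe set and 165 against 269 by the next.

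**Figure D4:**
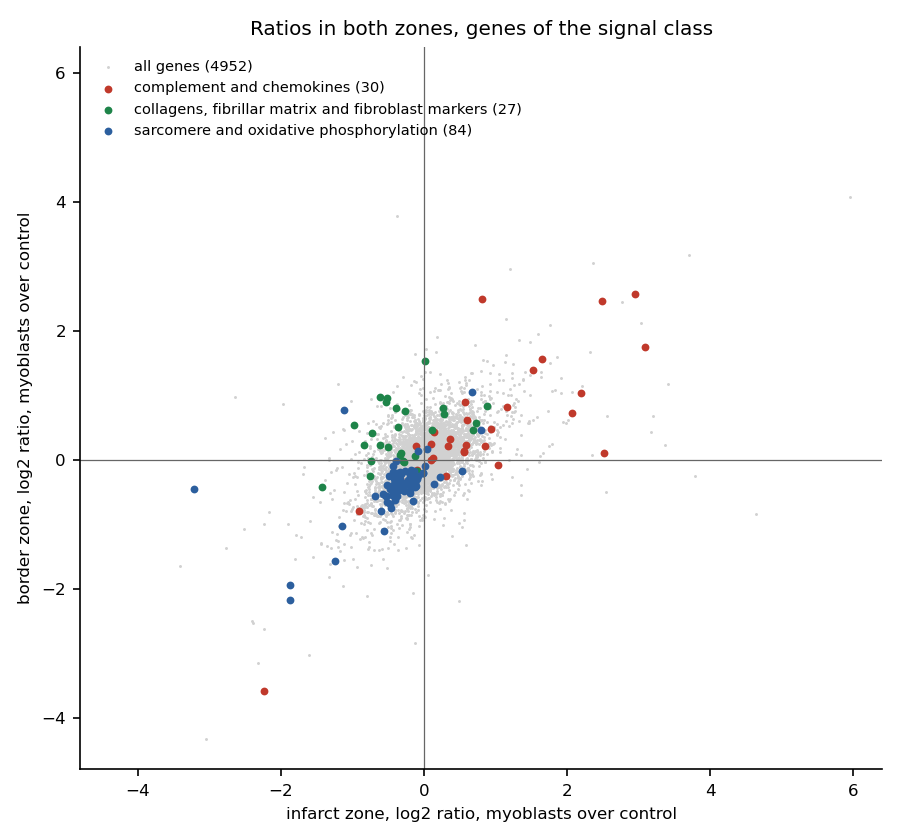
Log2 ratio of myoblasts over control in the border zone (vertical) against that in the infarct zone (horizontal), 1 point a gene, with 3 pairs of gene lists coloured over all 4952 genes. Complement and chemokine genes lie mostly at upper right, and sarcomere and oxidative phosphorylation genes mostly at lower left. At upper left lie 9 of 17 collagen and fibrillar matrix genes and 7 of 13 fibroblast markers. These are below 0 in the infarct zone and above 0 in the border zone.

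Across the class, 67.2% of probe sets had the same sign in both zones. Of the 340 higher in the infarct zone, 294 (86.5%) were on the same side in the border zone and 134 (39.4%) were at least 2-fold there, and of the 248 lower, 213 (85.9%) and 107 (43.1%). Going the opposite way at 2-fold in the border zone were 1 of the higher and 3 of the lower. These comparisons share no array, but the zones may come from the same minipigs. On the myoblast infarct array 23 of the 118 higher genes stood at least 2-fold above each of the other 3 arrays, among them LOC396781, JCHAIN, CFB, C4A, C4BPA, PTX3, CD209 and AGT. Of the 86 lower genes, 13 stood at least 2-fold below each of the others, among them SLN, CCK, LOXL1, MYL4 and RNF207.

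In the signals as deposited, most contractile genes of heart muscle were lower in both zones. The median of the sarcomere list in the infarct zone was smaller in size after quantile normalization, as given below. Of 26 sarcomere genes in the class, 24 lay below 0 in the infarct zone and 5 were at least 2-fold lower (19.2% of the list against 1.74% of all genes), with none at least 2-fold higher. Their median was -0.41 in the infarct zone and -0.35 in the border zone. Their summed signal was 381076 units on the myoblast infarct array and 498898 on its control. The 5 were ABRA, MYOM1, PDLIM3, MYOM2 and MYL4. MYOM1, which ties myosin at the M-band, read 3190 against 11695 units in the infarct zone and 2403 against 9288 in the border zone. ABRA, an actin-binding protein of striated muscle, read 1517 against 5577 and 1050 against 4758. PDLIM3, a protein of the Z-disc, read 576 against 1368 and 370 against 1105, and MYOM2, a second M-band protein, 5715 against 12591 and 6617 against 13524. Both myoblast arrays lay below both control arrays in these 4.

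The main filament genes were closer together. MYH7, the heavy chain of ventricular myosin, read 26177 against 34384 units, MYL2 27673 against 37290, TNNT2 27422 against 34844, TNNI3 24190 against 32716 and ACTC1 25095 against 33639 in the infarct zone. The log2 ratios of these 5 defining markers lay between -0.44 and -0.35, all under 2-fold. Of the 26 sarcomere genes 18 had a log2 mean signal of 13 or more, with a median of -0.39, beside -0.20 for all 262 genes at that signal. After quantile normalization of the arrays the median of the list was -0.09 in the infarct zone and -0.25 in the border zone, with 5 genes still at least 2-fold lower in the infarct zone. TNNT1, the slow skeletal troponin T, was higher in both zones at 13056 against 8196 and 11481 against 5520 units. The defining skeletal myoblast markers on the array, MYOD1, MYF5, CHRNA1 and TNNT3, were all outside the signal class, with MYOD1 at 5.09 against 34.1 and CHRNA1 at 95.0 against 85.7. The probes were designed to pig transcripts, and how far they bind those of the human donor cells was not tested. NCAM1, an adhesion molecule of myoblasts and nerve, read 304 against 671 units in the infarct zone and 497 against 539 in the border zone. Its other probe sets in the class read 163 against 384 and 172 against 203 in the infarct zone, and 516 against 517 and 248 against 139 in the border zone. With MYL1, DES, CKM and ENO3 it makes up the 5 of 18 genes of the wider skeletal muscle list that were in the class, all below 0 in both zones by their brightest probe sets, with a median of -0.50 in the infarct zone and 1 at 2-fold. DES, CKM and ENO3 are also genes of heart muscle.

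A pair of atrial genes stood apart on the myoblast infarct array. SLN, sarcolipin, an inhibitor of the calcium pump of the sarcoplasmic reticulum, read 161 units there and 997, 1833 and 931 on the control infarct, myoblast border and control border arrays. MYL4, the atrial light chain of myosin, read 331 there and 719, 1901 and 1120 on the others. NPPA, the atrial natriuretic peptide, went otherwise, with 4218 against 1246 in the infarct zone and 9119 against 2153 in the border zone, both myoblast arrays above both controls. NPPB, its ventricular relative, read 19546 against 20268. AGT, angiotensinogen, read 5836 units on the myoblast infarct array against 1142, 2074 and 1980 on the control infarct, myoblast border and control border arrays. Among 18 genes of calcium handling, SLN was the one at 2-fold (5.56%, against 1.74% of all genes). ATP2A2, RYR2 and PLN had log2 ratios of 0.17, 0.18 and -0.16. Smooth muscle genes were mixed, with a median of 0.04 over 19 genes and ACTA2, the actin of myofibroblasts, at 13670 against 7910 units in the infarct zone and 13169 against 12531 in the border zone.

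Mitochondrial genes were lower by small steps. Of 58 genes of oxidative phosphorylation 53 lay below 0 in the infarct zone, 1 was lower by 2-fold (1.72%, against 1.74% of all genes) and none higher. Their median was -0.31 in the infarct zone and -0.39 in the border zone, and -0.19 and -0.33 after quantile normalization. The list spans all 5 complexes, and 52 of its genes lay below 0 in both zones. The one at 2-fold was ATP5I, at 331 against 3072 units in the infarct zone and 610 against 836 in the border zone, and its other probe set was under 32 units on each array. CYCS, cytochrome c, was the highest of the list at 7533 against 4335 units. Of 25 genes of mitochondrial biogenesis and the Krebs cycle 21 lay below 0 (median -0.20). PPARGC1A, the coactivator that drives mitochondrial genes, was the lowest of them at 1025 against 2030 units in the infarct zone and 829 against 2403 in the border zone. Ribosomal proteins, of which 54 of 56 had a log2 mean signal of 13 or more, had a median of -0.18 in the infarct zone and 0.01 after quantile normalization.

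Lipid genes had no common direction. The median log2 ratio of 35 genes of fatty acid uptake and oxidation was -0.05, with 5 higher by 2-fold (14.3%, against 2.38% of all genes) and none lower. FABP4, the fatty acid carrier of adipocytes, macrophages and capillaries, read 7632 against 1529 units in the infarct zone and 5490 against 1727 in the border zone. SLC27A6, a heart fatty acid transporter, read 375 against 92.7, and CPT1A, the liver-type gate of mitochondrial import, 1310 against 502. PPARG, the nuclear receptor of adipocytes, read 249 against 112, and its target ANGPTL4, an inhibitor of lipoprotein lipase, 410 against 169. CPT1B, the muscle form of the gate, read 1233 against 1725, and LPL 4111 against 5638. These pairs set CPT1A and CPT1B, forms of the same enzyme, on opposite sides of 0 in the infarct zone. ADIPOQ, the defining adipocyte product, read 12.3 against 21.6 units. RBP7, a retinol carrier, read 379 against 6.10 units in the infarct zone, 5.93-fold with the floor of 64, and 174 against 10.3 in the border zone. ADM, adrenomedullin, and SLC2A3, a glucose transporter, both responsive to hypoxia, read 968 against 377 and 3964 against 1657, while the 25 genes of that list had a median of 0.13.

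**Figure D5:**
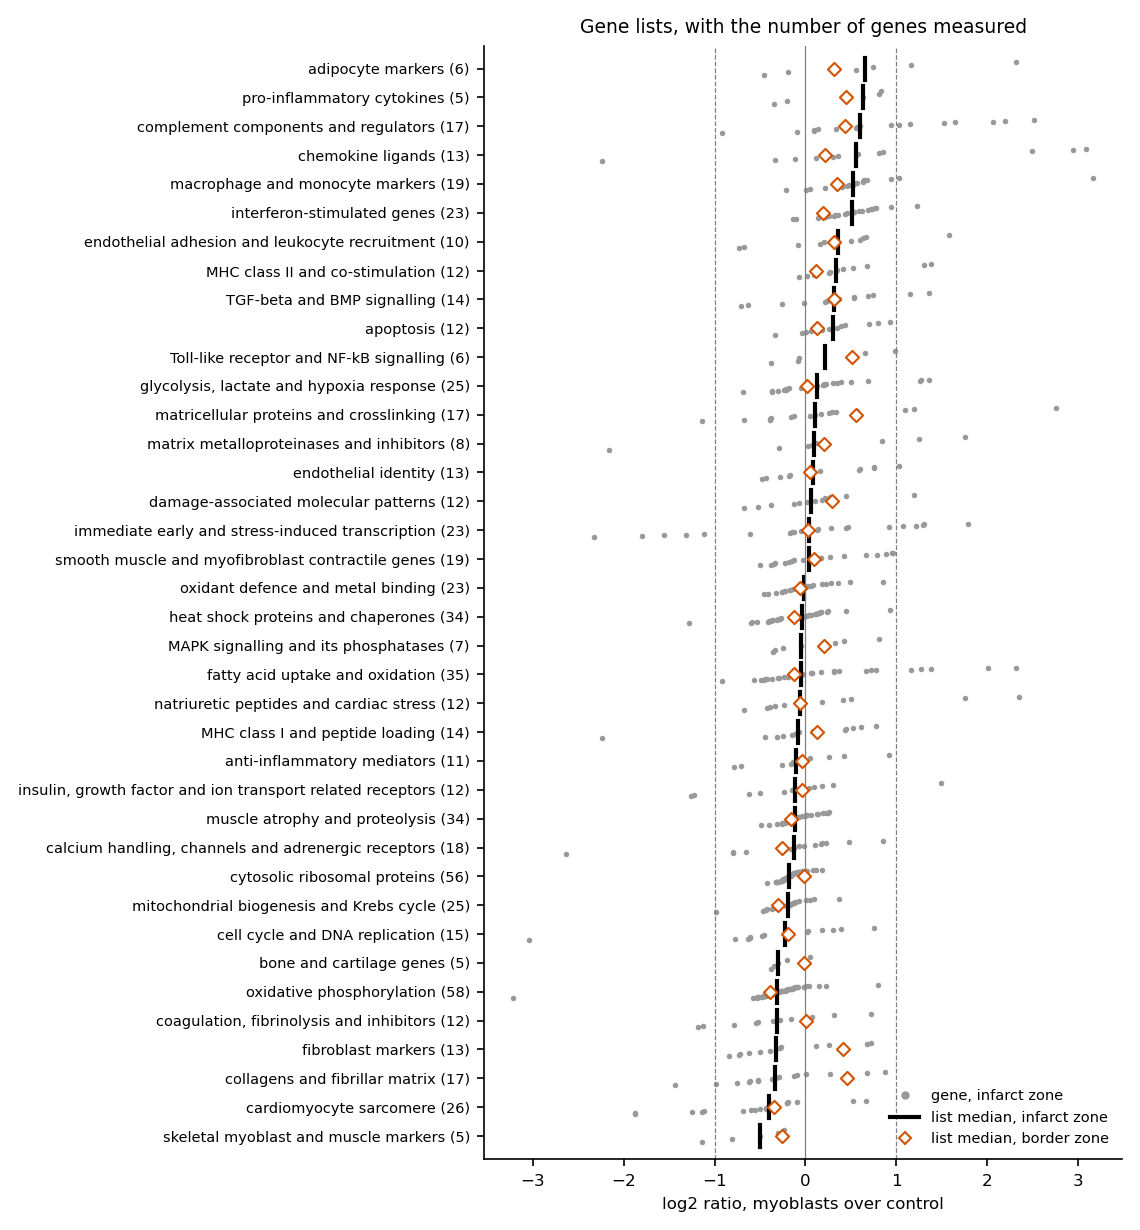
Log2 ratio of myoblasts over control in the infarct zone (horizontal) for each gene of the 38 lists with 5 or more genes in the signal class, with the list median as a black bar, the border zone median as an open diamond and dashed lines at 2-fold. Medians run from 0.65 for adipocyte markers to -0.50 for skeletal muscle markers, and the diamonds of collagens and fibroblast markers lie on the other side of 0 from their bars.

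Immediate early genes split in both directions. In the infarct zone 5 of the 23 in the class were higher by 2-fold and 5 were lower by as much (21.7% each way, against 2.38% and 1.74% of all genes), with a median log2 ratio of 0.04. Higher were IER2 at 1697 against 489 units, NR4A2 at 378 against 153, EGR1 at 5012 against 2046, FOSL2 at 380 against 163 and FOS at 13583 against 6443. Lower were NR4A3, an orphan nuclear receptor, at 440 against 2208, IER3 at 510 against 1772, IER5 at 1332 against 3906, ATF3 at 755 against 1881 and RHOB at 2717 against 5879. Each of the 10 had the same sign in the border zone, where NR4A3 read 350 against 3115 and IER2 1147 against 551. The 3 probe sets of EGR1 were all over 2-fold higher in the infarct zone. Of 34 heat shock proteins and chaperones 1 was at 2-fold, HSPA2, lower at 308 against 750 units (2.94%, against 1.74% of all genes).

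Several further genes lay at the extremes, of which RRM2B stands on the cell cycle list and SLA-3 on the MHC class I list. DDC read 2854 against 218 units in the infarct zone and 1006 against 111 in the border zone. DUOX2, an oxidase that makes hydrogen peroxide at epithelia, read 762 units on the myoblast infarct array and 30.5, 50.7 and 90.8 on the control infarct, myoblast border and control border arrays, and with the floor its infarct ratio was 11.9. UPK1B, a tetraspanin of urothelium and mesothelium, read 348 against 37.7, and ARAP2, a GTPase-activating protein, 349 against 59.7 in the infarct zone and 141 against 200 in the border zone. LOC100510975, with no role given, read 4099 against 501 and 2013 against 464, and its second probe set 724 against 106 in the infarct zone. On the lower side, RRM2B read 82.3 against 678 units in the infarct zone and 30.6 against 615 in the border zone. CCK, the peptide cholecystokinin, read 428 against 2900 and 2128 against 5499. SLC3A1, a subunit of the cystine transporter, read 223 against 1176 and 162 against 919, and TACC1, a coiled-coil protein of the centrosome, 147 against 769 and 155 against 895. RRM2B, SLC3A1, TACC1 and SLA-3 each had both myoblast arrays far below both controls, with the zones alike.

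Among other genes, PADI2, which turns arginine into citrulline, read 119 against 676 units, and RNF207, a RING finger protein, 27.3 against 289. NNAT, neuronatin, read 61.3 against 289, and PYROXD1, an oxidoreductase, 80.3 against 288. CRYAB, a small heat shock protein, read 24205 against 32015 by its brightest probe set and 411 against 1736 by the other. F3, tissue factor, the trigger of clotting, read 495 against 1126 in the infarct zone and A2M, a broad inhibitor of proteases, 374 against 817. The 12 coagulation genes had a median log2 ratio of -0.32 in the infarct zone and 0.01 in the border zone. Of growth factors, IGFBP2 read 198 against 70.7, IGF2 195 against 467 and BDNF 128.04 against 299.95 units. Among 15 genes of the cell cycle RRM2B was the one at 2-fold (6.67%, against 1.74% of all genes), and the median was -0.23. Apoptosis genes had a median of 0.30 over 12 genes, none at 2-fold. Also without a gene at 2-fold in the infarct zone were 11 anti-inflammatory mediators (median -0.11), 6 genes of Toll-like receptor and NF-kB signalling (0.21), 7 of MAPK signalling (-0.05), 23 of oxidant defence (-0.02), 34 of proteolysis (-0.12) and 5 of bone and cartilage (-0.30). The 5 pro-inflammatory cytokines in the class, among them IL15 and IL18, had a median of 0.63 and none at 2-fold either.

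The widest ratios of all were in probe sets without a single symbol, which are given by their identifiers. Ssc.11208.1.S1_at read 2788 units on the myoblast infarct array against 3.70 on its control, and 75.5 against 3.94 in the border zone. Ssc.11070.1.S1_at read 19621 against 491 in the infarct zone and 1235 against 1341 in the border zone. Ssc.7117.1.A1_a_at read 59.1 against 830 and 77.7 against 780, and Ssc.28686.1.S1_at 61.0 against 673 and 64.5 against 702. The first of these stood high on the myoblast infarct array, the second on that array alone, and the last pair were low on both myoblast arrays. Of 949 genes with at least 2 probe sets in the signal class, 28 were at 2-fold by the brightest. For 12 of these another probe set was also at 2-fold the same way, for 23 all others had the same sign, and for 0 was another at 2-fold the opposite way. The brightest pair of probe sets differed by more than 1 on the log2 scale in 41 of the 949 genes (4.32%).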

How the data were processed

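RNA of heart tissue was hybridised to 4 Affymetrix Porcine Genome Arrays, 1 per zone and treatment. The authors deposited log2 values of the MAS 5.0 signal, in which background is subtracted and each array scaled to a common mean, and used Gene Spring after it, per the methods. The log2 values were used as deposited. No column was left out. Signals are 2 to the power of these values, and a log2 ratio is myoblast minus control. Symbols came from the platform annotation, of which 9989 of 10099 single-symbol probe sets matched the reference by gene ID. The signal class rests on a mean signal of 128 units (7 on the log2 scale) over the infarct arrays, a call on 2-fold, and each gene on its brightest probe set. Lists with under 5 genes in the class get no median.

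The members and the 46 gene lists were chosen with earlier results of these data known. Named genes are the 20 largest rises and 20 largest falls with signals under 64 set to 64, the 3 highest and 3 lowest of each list, the defining markers of each cell type and the genes the study followed. The text also names ATF3, ATP2A2, C1S, C3, C7, CD46, CD59, CD74, COL5A1, CTSB, FOS, FOSL2, ICAM1, ISG15, LUM, MMP2, MRC1, MYL4, MYOM2, NPPB, PLN, POSTN, RHOB, RYR2, SLA-DRA, SLA-DRB1 and TIMP1, which fall outside this rule and were chosen after their values were seen. The code that counts was tested on simulated data. A search of promoters for motifs was planned and not run, since no promoter sequence was at hand. Python 3.11.15, numpy 2.4.6, pandas 2.3.3 and matplotlib 3.10.9 were used.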

Additional observations from a re-analysis of the deposited data

Results flagged for a closer look

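Some results lay on opposite sides of control in the infarct zone and the border zone, and with 1 array a condition the differences were not tested. DUOX2 had a log2 ratio of 4.64 in the infarct zone and -0.84 in the border zone. SLN had -2.63 and 0.98, PJA1, a ubiquitin ligase, -1.97 and 0.86, and MCT7, a mast cell tryptase, -1.19 and 1.17. The signals were dim for MCT7, at 82.5 against 189 units in the infarct zone and 160 against 71.3 in the border zone, and for DUOX2 on 3 arrays. PJA1 read 423 against 1660 and 1250 against 686 units. The list of collagens and fibrillar matrix had a median log2 ratio of -0.34 in the infarct zone and 0.46 in the border zone, and that of fibroblast markers -0.32 and 0.41. DCN, LUM and COL1A2 stand on both lists. No group has enough arrays for a check of single outlying samples.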

How the results depend on the processing

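With 1.5-fold in place of 2-fold, 1150 probe sets were higher and 927 lower, and with 4-fold 55 and 27. Without the signal minimum the counts were 2533 and 2300, with a minimum of 6 on the log2 scale 596 and 449, and with 9 they were 116 and 98. By gene they were 118 and 86 by the brightest probe set and 114 and 83 by the mean over probe sets, which count fewer features. Both counts stayed within 1.5 times when the class used a geometric mean, when arrays were quantile-normalised or centred, when low signals were floored, and in the border zone. The median log2 ratio of coagulation genes, -0.32 in the infarct zone, was 0.0317 without the signal minimum and 0.0115 in the border zone. The median log2 ratios of collagens and of fibroblast markers were 0.46 and 0.41 in the border zone, and both 0.43 there after quantile normalization, an alternative chosen after seeing the data, under which bone and cartilage genes had 0.11. The cause was not tested. Of 75 named genes at 2-fold, between 69 and 75 stayed there under the 5 alternatives run for them, and all 75 kept their sign. Many of these genes were named for wide ratios on these same arrays, and the widest were ranked with the floor of 64. Their staying at 2-fold, above all under that floor, was thus largely set in advance. No replicate could be left out, and signals under 7 on the log2 scale limit any ratio. The planned search of promoter motifs was not run for want of sequences. No paired analysis was possible because each condition has 1 array.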
